A study of Mus musculus with 2 samples.

Results

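The 4 miRNA genes Mir34a, Mir34b, Mir34c and Mir210 were followed in short RNA sequencing of mouse heart. They were picked by name, as the mir-34 family and the hypoxia-responsive Mir210, out of 2202 annotated miRNA genes. The material was total RNA of whole heart tissue from 36-day-old B6CASTF1/J males, F1 animals of a cross between the B6 and CAST strains. Both libraries, numbered 1 and 2 by the labels' replicate numbers, belong to this single untreated group. A second free-text label attaches months to the same age, and both libraries carry the same donor record although they name differently numbered males. The p-values below therefore measure only reads of one library against reads of the other. No stressed, hypoxic or p53-altered heart was sampled, so the data give the levels of these genes in young heart tissue and their spread between libraries.

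A miRNA is cut from a hairpin precursor and guides silencing complexes to messenger RNAs, mainly through its seed, bases 2 to 8 counted from the 5′ end. The mir-34 family is known as a set of direct transcriptional targets of p53 that restrain cell division and favour senescence and apoptosis. In heart, miR-34a is known to increase with age and after infarction. Mir34b and Mir34c are known from ciliated epithelium and testis. Mir210 is the best-known miRNA target of the hypoxia-inducible factor HIF-1 and acts on mitochondrial iron-sulphur cluster assembly and survival under low oxygen.

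All 4 genes were found in the RefSeq miRNA table (build GRCm38.p6). The mature sequences are given here because family membership rests on the seed, which is in capitals, and because the closeness of copies bears on how reads are assigned. The lines run 5′ to 3′, and Mir449a, a relative outside the 4 genes, is included for its seed.

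miR-34a-5p: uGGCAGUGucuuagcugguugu
miR-34b-5p: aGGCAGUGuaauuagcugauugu
miR-449a-5p: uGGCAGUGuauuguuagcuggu
miR-34b-3p: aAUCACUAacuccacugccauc
miR-34c-3p: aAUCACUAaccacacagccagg
miR-34a-3p: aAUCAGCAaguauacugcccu
miR-210-3p: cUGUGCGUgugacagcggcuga
miR-210-5p: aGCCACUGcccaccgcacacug

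Among 1679 mature sequences in that table, 4 carried the seed GGCAGUG, those of Mir34a, Mir34b, Mir449a and Mir449c. That table held no entry for miR-34c-5p, so its seed could not be counted, and its absence from the 4 does not mean that it lacks the seed. The miR-34b-3p and miR-34c-3p sequences shared the seed AUCACUA with each other and with no other entry. Each of the 2 seeds of Mir210 and the miR-34a-3p seed belonged to a single entry. In a global alignment, 19 bases were identical between miR-34a-5p (22 nt) and miR-34b-5p (23 nt), and 18 between miR-34a-5p and miR-449a-5p. Only 9 matched between miR-34a-5p and miR-210-3p.

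None of the listed mature sequences of the 4 genes occurred whole in any other annotated hairpin. The longest stretch that a hairpin of theirs shared with another was 12 nt for Mir34a and Mir210 and 11 nt for Mir34b and Mir34c. By comparison, 1022 of 2202 hairpins shared 22 nt or more, about a whole mature miRNA, with another hairpin. Reads that mapped to several places were assigned to no gene in the deposited tables, so this measure bears on how far a count can be too low. Unannotated copies in the genome were not looked for.

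The hairpins of Mir34a and Mir210 are printed whole, with both mature arms in capitals, because each gene count sums reads from both arms and the tables do not split them.

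Mir34a: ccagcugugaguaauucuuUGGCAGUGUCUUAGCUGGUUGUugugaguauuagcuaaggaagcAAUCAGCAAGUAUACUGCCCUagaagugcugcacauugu
Mir210: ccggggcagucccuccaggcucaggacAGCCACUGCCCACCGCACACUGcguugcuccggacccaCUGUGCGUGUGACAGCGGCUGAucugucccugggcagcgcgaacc

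The Mir210 hairpin was long and rich in G and C. At 110 nt it was longer than 89.4% of 968 annotated hairpins with a RefSeq sequence, and its GC content of 69.1% was above that of 96.6% of them. The Mir34a hairpin had 102 nt and 44.1% GC, that of Mir34b 84 nt and 47.6%, and that of Mir34c 77 nt and 40.3%. The median of the 968 was 79 nt and 51.7% GC.

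In the mm10 assembly and GENCODE M21, Mir34a (ENSMUSG00000065493.1) lies on the plus strand of chromosome 4 from 150068454 to 150068555. Its last 17 nt overlap the exon of Gm37795, a locus of undetermined type on the same strand. Mir34c (ENSMUSG00000065587.1, chromosome 9, 51103034 to 51103110) and Mir34b (ENSMUSG00000065492.1, chromosome 9, 51103562 to 51103645) lie on the minus strand, 451 nt apart. Both sit opposite an intron of 1 of the 5 annotated transcripts of Btg4, a gene of an antiproliferative protein family, and overlap no exon. Mir210 (ENSMUSG00000065551.1, chromosome 7, 141221384 to 141221493, minus strand) overlaps no other annotated gene. Its neighbours are Rassf7 at 2725 nt and Phrf1 at 7290 nt, both on the other strand.

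Library 1 held 5479149 reads, of which 1999362 fell on the sense strand of a miRNA gene, and library 2 held 4893073 and 1862526. Levels are counts per 1000000 (CPM) of these assigned reads, so that 1 read is worth 0.50 CPM in library 1 and 0.54 in library 2. A count of 0 allows up to 3 counts, equal to 1.5 and 1.61 CPM. The labels give an insert size under 30 nt, so a read covers about 1 mature miRNA and counts were compared between genes without division by hairpin length. Intervals are exact Clopper-Pearson 95% intervals, which cover counting error only, and PCR reads without molecular identifiers are not independent molecules.

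As a check of the tissue, all 3 miRNAs carried in cardiac myosin genes were present, Mir208a at 5198 ± 2553 CPM (SD, n = 2), Mir499 at 2239 ± 1277 and Mir208b at 127 ± 33.6. Of the other marker lists, the summed level was 48924 and 63819 CPM in libraries 1 and 2 for endothelium (Mir126a), 39517 and 38697 for smooth muscle, 2452 and 1970 for red cells, and 1668 and 1958 for leukocytes. Of 6 neuronal loci 5 had no count, but all 6 share 22 nt with another locus, so that a count of 0 sets no limit there. In bulk tissue, fewer cells of a type and less RNA per cell cannot be told apart.

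Mir34a was by far the most abundant of the 4 genes. It had 5364 reads in library 1 and 7100 in library 2, or 2683 CPM (interval 2612 to 2756) and 3812 CPM (3724 to 3902). Its mean was 3247 ± 798 CPM (SD, n = 2), 0.268% and 0.381% of assigned reads, which placed it 35th of 2202 genes. Ranks here and below are by assigned reads, so genes whose reads map to several places can rank too low. The libraries did not overlap in their counting intervals, with library 2 the higher. Next in rank were Mir155, a miRNA of activated leukocytes, above it at 3341 ± 492 CPM, and Mir423 below it at 3115 ± 410 CPM. Both differed from Mir34a by less than 1 SD of Mir34a.

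Mir210 came second among the 4, far below Mir34a. It had 318 and 390 reads, or 159 CPM (interval 142 to 178) in library 1 and 209 CPM (189 to 231) in library 2. As for Mir34a, library 2 was the higher and the counting intervals did not overlap. The mean of 184 ± 35.6 CPM placed it 117th, between Mir874 at 186 ± 21.4 CPM and Mir378d at 170 ± 34.9 CPM, again within the spread of the libraries. Reads of Mir34a outnumbered those of Mir210 by 16.9 to 1 in library 1 (interval 15.1 to 18.9) and 18.2 to 1 in library 2 (16.4 to 20.2). This ratio does not depend on how the libraries are scaled, and its intervals overlapped.

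Mir34c was detected at a low level. It had 73 and 88 reads, or 36.5 CPM (interval 28.6 to 45.9) and 47.2 CPM (37.9 to 58.2). The mean was 41.9 ± 7.59 CPM, the 190th highest. Its libraries overlapped in their intervals. The ratio of Mir210 to Mir34c reads was 4.36 in library 1 (interval 3.37 to 5.7) and 4.43 in library 2 (3.51 to 5.65). These intervals overlapped, but they are too wide to show that the ratio is constant.

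Mir34b was at the limit of detection. It had 4 reads in library 1 and 1 in library 2, or 2 CPM (interval 0.545 to 5.12) and 0.537 CPM (0.0136 to 2.99), a mean of 1.27 ± 1.04 CPM. Library 1 stood just above the level of 3 counts and library 2 below it. It was also the only gene of the 4 with an antisense read, 1 in library 1. The neighbouring Mir34c had 18.3 times as many reads in library 1 (interval 6.83 to 68.8) and 88 times in library 2 (15.4 to 3515), so the pair was unequal in both libraries although its size rests on 5 Mir34b reads.

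**Figure D1:**
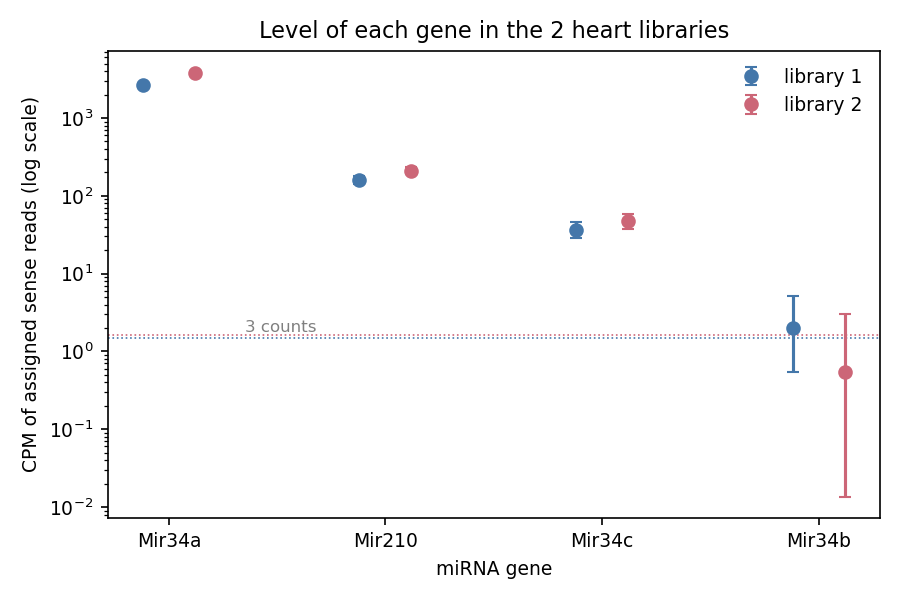
Level of Mir34a, Mir210, Mir34c and Mir34b in CPM of assigned sense reads (log axis) in library 1 (blue) and library 2 (red), with exact 95% counting intervals as bars and the level of 3 counts as dotted lines. Mir34a stands at 2683 and 3812 CPM, Mir210 at 159 and 209, Mir34c at 36.5 and 47.2, and the intervals of Mir34b span the level of 3 counts.

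Within the family, Mir34a took nearly all counted reads. Its share of the 3 mir-34 genes was 98.6% in library 1 (interval 98.2 to 98.9) and 98.8% in library 2 (98.5 to 99.0), on average 98.7% ± 0.125 (SD, n = 2). The order Mir34a, Mir210, Mir34c, Mir34b held in both libraries, and no counting interval of one overlapped that of the next in the same library.

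The Mir449 genes, which lie together in an intron of Cdc20b on chromosome 13, are known from multiciliated cells. Mir449a and Mir449c carry the mir-34 seed, and Mir449b is counted with them by name. Mir449a had 96 and 68 reads, 48.0 and 36.5 CPM, a mean of 42.3 ± 8.14 CPM. That was within the spread of Mir34c, and the order of the pair turned between libraries, with a Mir449a to Mir34c ratio of 1.32 (interval 0.96 to 1.81) in library 1 and 0.773 (0.555 to 1.07) in library 2. Mir449b and Mir449c had no read in either library, which allows up to 1.5 and 1.61 CPM. Over these 6 genes with the shared seed or family name, the libraries held 5537 and 7257 reads, and Mir34a gave 96.9% and 97.8% of them. Reads of Mir34a outnumbered those of Mir449a by 55.9 to 1 (interval 45.7 to 69.1) and 104 to 1 (82.3 to 135), intervals that did not overlap.

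The libraries were then compared gene by gene, as a measure of how far these levels repeat. The fit covered the 344 genes with 10 or more reads summed over both libraries, by an exact two-sided conditional binomial test with Benjamini-Hochberg adjustment over all 344. To be called, a gene needed an adjusted p under 0.05 together with at least a 2-fold ratio of CPM. Mir34a, Mir34c and Mir210 entered the test, while Mir34b with 5 reads did not. All 3 were higher in library 2, by 1.42-fold for Mir34a (interval 1.37 to 1.47), 1.32-fold for Mir210 (1.13 to 1.53) and 1.29-fold for Mir34c (0.938 to 1.79). Mir34b stood at 0.268-fold, with an interval of 0.00545 to 2.71 that includes no difference and changes in both directions.

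None of the 3 was called, against a background of 17.7% of tested genes (61 of 344, of which 19 were higher and 42 lower in library 2). Under TMM factors (trimmed mean of M-values), which set the bulk of genes equal, 29 were higher and 27 lower. By adjusted p alone, Mir34a (adjusted p = 7.65e-84) and Mir210 (0.000813) differed and Mir34c (0.186) did not pass in the exact binomial test. That criterion was met by 54.1% of tested genes in either direction and by 17.7% (again 61) as higher in library 2. The test knows only counting error, so it compares these libraries and no conditions.

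Under assigned totals, the direction of these 3 genes was less common in the whole table. The median log2 ratio of library 2 over library 1 was 0.40 over Mir34a, Mir34c and Mir210 and -0.19 over all 344 genes, of which 126 (36.6%) were higher in library 2. As log2 ratios, Mir34a stood at 0.51 (interval 0.46 to 0.56), above 84.0% of tested genes, Mir210 at 0.40 (0.18 to 0.61), above 79.7%, and Mir34c at 0.37 (-0.09 to 0.84), above 78.8%. TMM and DESeq2 scaling each added 0.19 to every log2 ratio and brought the median of all genes to 0.00. With either, 173 of the 344 genes were higher in library 2, so the direction was then no longer the less common one. Under TMM the 3 genes reached 0.70, 0.59 and 0.56, and Mir34c then passed the adjusted p of the exact binomial test (0.0296), so that all 3 passed against 26.7% of tested genes as higher in library 2. No scaling brought any of them to 2-fold.

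**Figure D2:**
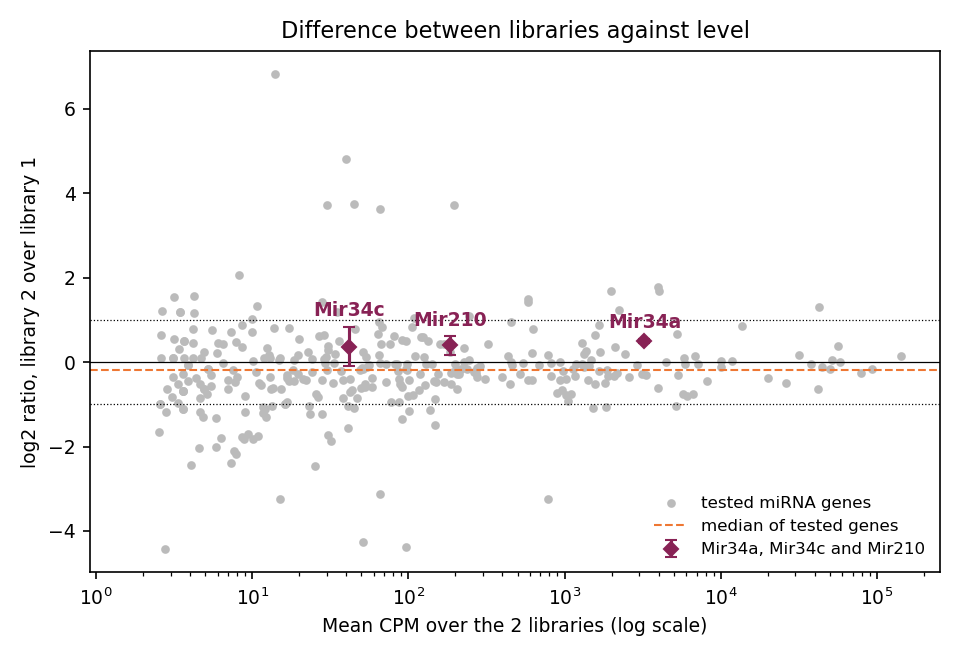
Log2 ratio of library 2 over library 1 (scaled to assigned totals) against mean CPM (log axis) for the 344 tested genes in grey, with Mir34a, Mir34c and Mir210 as diamonds with exact 95% counting intervals. The dashed line is the median of tested genes at -0.19 and dotted lines mark 2-fold; the 3 diamonds lie between 0.37 and 0.51.

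Among genes of like abundance, the ratio of Mir34a was in the upper part of the range. Of 28 other genes within 2-fold of its mean CPM, 6 had a higher log2 ratio and 11 a larger one in either direction, and their median was -0.19. Of 53 genes near Mir210, 11 had a higher ratio and 27 a larger one in either direction, with a median of -0.19. Of 69 genes near Mir34c, 17 had a higher ratio and 47 a larger one in either direction, with a median of -0.16. The SD was 24.6% of the mean for Mir34a and 19.3% for Mir210, against a median of 16.5% for the 141 genes that averaged 100 CPM or above. For Mir34c it was 18.1%, but with a mean of 41.9 CPM this gene lies outside that set.

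**Figure D3:**
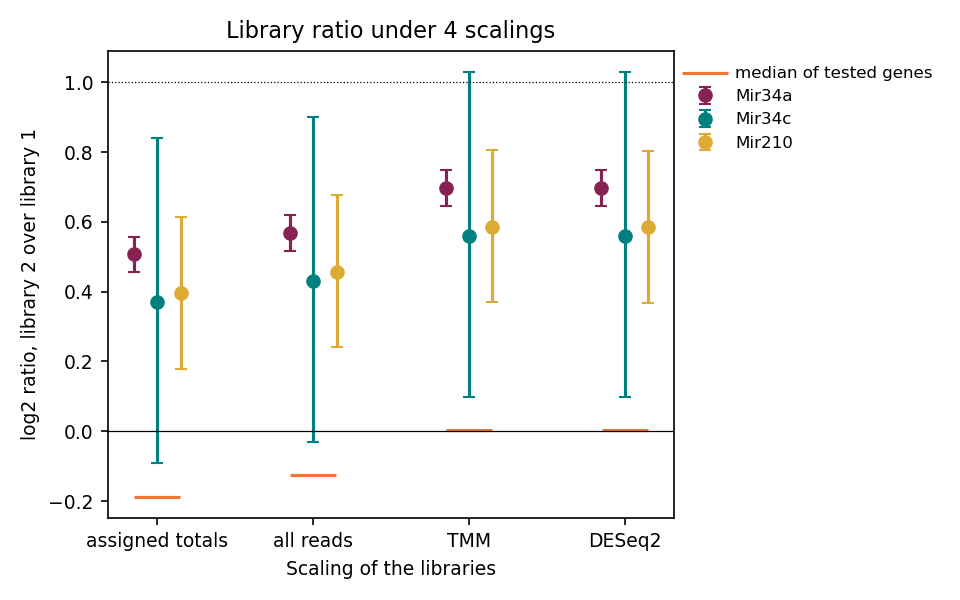
Log2 ratio of library 2 over library 1 for Mir34a, Mir34c and Mir210 under 4 scalings of the libraries, with exact 95% counting intervals, and the median of all tested genes as orange bars. All points lie above the median of tested genes and below 2-fold (dotted line), and the interval of Mir34c includes 0 under assigned totals and all reads.

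Levels of cell type markers also differed between the libraries. Under assigned totals, summed CPM in library 2 over library 1 was 0.782-fold for the cardiac muscle list and 1.30 for the endothelial. It was 0.979 for the smooth muscle, 0.803 for the red cell and 1.17 for the leukocyte list. The epithelial list outside the Mir449 genes stood at 2.06-fold. With TMM scaling Mir143 (smooth muscle), Mir144 and Mir486 (red cell) and Mir223 (leukocyte) turned to higher in library 2. No gene of the cardiac muscle, endothelial or epithelial lists turned direction. The cardiac muscle genes went opposite ways, with log2 ratios of -1.05 for Mir208a, -0.55 for Mir208b and 1.23 for Mir499. In that epithelial list 6 of 7 genes passed the adjusted p as higher in library 2, against 17.7% of all tested genes, and its sum went from 460 to 947 CPM. Of the ciliated and testis list, Mir449a had 48.0 and 36.5 CPM and did not pass the exact binomial test (adjusted p = 0.145), and Mir449b and Mir449c were at 0. The part of these marker differences in the ratios of Mir34a, Mir34c and Mir210 was not tested.

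Other miRNAs linked to p53 in the literature were present over a wide range. All 11 of the list had 10 CPM or more in both libraries, and 6 of them averaged 100 CPM or above. Mir143, a smooth muscle miRNA, had 38272 and 37276 CPM. Its cluster partner Mir145a had 1244 and 1422 CPM. The level of Mir34a lay between these 2 and above every other gene of the list. Below it were Mir15a, which targets cell-cycle and survival genes, at 1380 and 729 CPM, Mir107 at 1158 and 883, Mir16-1 at 463 and 796, and the epithelial Mir200c at 309 and 595. The other 5, Mir141, Mir192, Mir194-1, Mir194-2 and Mir215, lay between 17.3 and 45.5 CPM on average. Of these only Mir215 (45.5 CPM) was about the level of Mir34c (41.9 CPM), and the rest reached at most 24.1 CPM. Mir107, Mir16-1, Mir194-1 and Mir194-2 share 22 nt with another locus and can be undercounted.

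The p53-linked genes did not share 1 direction between libraries. By adjusted p in the exact binomial test, 5 of 11 were higher in library 2 and 3 were lower, against 17.7% and 36.3% of all tested genes, with a median log2 ratio of 0.19 against -0.19 over all tested genes. Those lower were Mir15a (-0.92), Mir107 (-0.39) and Mir143 (-0.04). Cluster partners such as Mir143 and Mir145a were counted as separate genes in these shares. With TMM scaling 6 were higher and 2 lower, against 26.7% and 23.3% of all tested genes, since Mir143 turned to 0.15. Mir200c (1.14) and Mir141 (0.99 after adding 0.5 to its counts) were then called, where none was before. These 2 genes also belong to the epithelial list, and both were among the 5 higher under assigned totals.

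The hypoxia-linked list held some of the genes with the most assigned reads in these hearts, and Mir210 was among its lower members. Of 13 genes, 11 averaged 100 CPM or above, and the median of the list was 1831 CPM against 184 CPM for Mir210. The leading genes were Mir23b (57868 and 58035 CPM), Mir23a (51422 and 32990), Mir26b (30420 and 21661) and Mir322 (5935 and 4777), the last known to act on the ubiquitin ligase scaffold Cul2. Mir21a, a fibroblast-enriched miRNA, followed at 1776 and 6143 CPM, Mir155 at 3689 and 2993, Mir214 at 2471 and 1190, Mir27a at 1180 and 2156 and Mir107 at 1158 and 883. Mir24-2 (233 and 191 CPM) and Mir24-1 (75.5 and 134) lay on either side of Mir210 in library 1 and on average, while in library 2 both were below it. Mir199a-1 had no count and Mir199a-2 had 17 and 6 reads. These, both Mir24 loci and Mir107 share 22 nt with another locus and can be undercounted. Mir210 shared at most 12 nt with another annotated hairpin, though unannotated copies were not looked for.

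Under assigned totals, 8 of 12 tested genes of the hypoxia-linked list were at a lower level in library 2, where Mir210 was higher. Of all tested genes, 63.4% were lower there under the same scaling. By adjusted p in the exact binomial test, 3 of the 12 were higher there, Mir21a (log2 ratio 1.79), Mir27a (0.87) and Mir24-1 (0.82), and 7 were lower, among them Mir214 (-1.05) and Mir23a (-0.64). Over all tested genes these shares were 17.7% higher and 36.3% lower. The median of the list was -0.31 against -0.19. With TMM scaling 4 were higher and 6 lower, against 26.7% and 23.3% of all tested genes, with a median of -0.12.

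**Figure D4:**
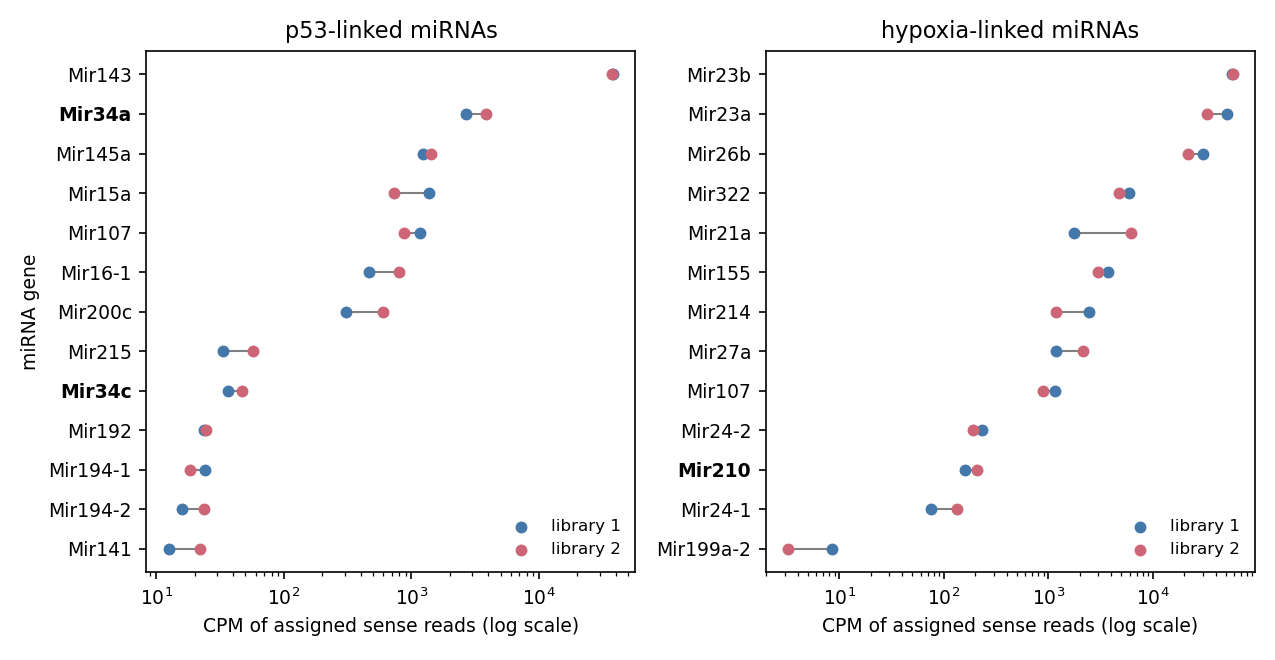
CPM of assigned sense reads (log axis) in library 1 (blue) and library 2 (red) for the tested genes of the p53-linked list with Mir34a and Mir34c, and of the hypoxia-linked list with Mir210 (names in bold). Mir34a is exceeded only by Mir143 on the left, and on the right, where genes are ordered by their mean, Mir24-1 and Mir199a-2 lie below Mir210 in both libraries and Mir24-2 in library 2.

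The genes whose values lay nearest in both libraries were found by Euclidean distance in log2(CPM + 1) over n = 2 libraries, a likeness of level that 2 points can hardly define. Nearest to Mir34a were Mir320 (2995 and 2861 CPM, distance 0.44) and Mir423 (3405 and 2825 CPM, 0.55). Nearest to Mir210 were Mir874 (171 and 201 CPM, distance 0.12) and Mir378d (145 and 194 CPM, 0.17). Nearest to Mir34c were Mir215 (33.5 and 57.4 CPM, distance 0.30), from the p53-linked list, and Mir1198 (29.5 and 41.9 CPM, 0.34).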

How the data were processed

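Short RNA from 2 heart libraries of 1 group was counted by the authors, who deposited 1 table of raw read counts per library. Per the text deposited beside them, the tables use mm10 and annotation M21. No source used here names the aligner or counter, which are not given. As deposited, the counts have columns for both strands, the sense and the antisense strand, the strand being read from the values. The sense column was used. The first 4 rows name no gene and were left out: 63.5% of reads in library 1 and 61.9% in library 2, of which reads mapping to several places were 41.5% and 42.9%.

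All 2202 identifiers matched GENCODE M21 symbols. CPM, intervals and the exact binomial test were computed with scipy 1.17.1, log2 ratios with 0.5 added to each count, TMM factors with edgeR 4.0.16 and size factors with DESeq2 1.42.0. No design with replicates per side exists, so no quasi-likelihood test was run. The exact binomial test was first tried on simulated counts with counting error alone, which does not show how it behaves under further spread between libraries. Alignments used Biopython 1.88.

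The members, lists and tests were chosen with earlier results of these data known. Named are the 4 genes, list members averaging 100 CPM or above (failing that, the highest), and the 2 nearest genes of each of the 4 at 10 CPM or more. Genes named otherwise, such as rank neighbours, were chosen after their values were seen. Alternatives were other scalings, denominators, strands, pseudocounts, filters and thresholds, and each replicate left out.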

Additional observations from a re-analysis of the deposited data

Results flagged for a closer look

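Reads mapping to several places, which belong to no gene of the tables, numbered 2273922 in library 1 and 2098983 in library 2, a signal that the levels above do not use. No hairpin of Mir34a, Mir34b, Mir34c or Mir210 shares more than 12 nt with another annotated hairpin. How many of these reads belong to the 4 genes was not tested. Neither outlying samples nor differences between groups were tested, since there is 1 group of 2 libraries.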

How the results depend on the processing

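Of 69 alternative values, 60 kept their direction, their side of the threshold or stayed within 1 SD, and none turned direction. With n = 2, a value from 1 library alone always lies within 1 SD of the mean. The alternatives that left out a library are among the 60 and say nothing on stability. Also among the 60 are those of the Mir34b ratio, which rests on 5 reads. A change of pseudocount could hardly move the ratios of Mir34a, Mir34c and Mir210. The Mir34c ratio counts as kept under TMM and DESeq2 scaling, although its adjusted p in the exact binomial test went from 0.186 to 0.0296. With all reads as the denominator the mean levels were 1215 CPM for Mir34a, 68.9 for Mir210 and 15.7 for Mir34c. With both strands counted together they were 4227, 239.6 and 54.5 CPM. In both cases the denominator itself changed. Per nucleotide of hairpin, the Mir34a share of its family was 98.3% and the ratio of Mir34a to Mir210 was 18.9. At 1.5-fold, 105 genes were called between the libraries in place of 61. The log2 ratio of Mir34a ranged from 0.51 to 0.70 over 7 alternatives, that of Mir210 from 0.40 to 0.59 and that of Mir34c from 0.37 to 0.56. The adjusted p of Mir34c in the exact binomial test ranged from 0.0296 to 0.326 and that of Mir210 from 2.79e-07 to 0.00154. Without 1 library, the ratio of Mir34c to Mir34b was 18.3 or 88, since Mir34b had 4 and 1 reads, and the Mir34b level was 2 or 0.537 CPM. The depth limits Mir34b, whose interval includes the level of 3 counts in both libraries. No paired analysis was possible because there is a single group.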
